A study of Mus musculus with 2 samples.

Results

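Ery 4 is 1 of the erythroid subclusters that the authors defined by droplet-based scRNA-seq of a wild-type mouse liver at E12.5. The strain is labelled C57BL/6, and the paper's methods write C57BL/6J. The members of Ery 4 were all cells of that name in the deposited table of cells, which were 2559 of 10537 cells. Library 1 held 1357 of them, or 24.8% of its cells (95% confidence interval 23.6 to 25.9%), and library 2 held 1202, or 23.8% (22.6 to 25.0%). The same table assigns each of these cells to the erythroblasts (Eryb). The 2 libraries were technical replicates of cells from 1 liver, sorted by flow cytometry to remove debris, dead cells and doublets before encapsulation. No other genotype, treatment or time point enters the comparisons. Because there was 1 liver, and because subclusters made from the same genes cannot be tested against each other on those genes, no p-value is given and differences are described by their size in each library. Throughout, paired values are given for library 1 first and library 2 second, and intervals are exact 95% confidence intervals that cover counting error only. Ery 4 was compared with Ery 3, Ery 5 and Ery 6, the other Ery subclusters with the highest shares of adult globin UMIs.

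Erythroblasts are nucleated red cell precursors. As they mature in the fetal liver, they load hemoglobin, build the membrane skeleton with its blood group proteins, divide a last few times, condense the nucleus and finally expel it, and clear ribosomes and mitochondria. The transcription factors GATA1 and KLF1 drive many of the genes for heme, globin and membrane proteins, erythropoietin acts through its receptor to keep the cells alive, and E2F factors and the DREAM complex time the genes of DNA replication and mitosis.

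The 250 bases before the RefSeq start of 5 genes are shown, with letters of known factor motifs in capitals. These genes are named below for globin, heme synthesis, the membrane skeleton, S phase and mitosis. Hbb-bs encodes an adult beta globin, Alas2 the first enzyme of heme synthesis in red cells, Epb42 the membrane skeleton protein 4.2, Mcm5 a subunit of the replication helicase, and Ube2c a ubiquitin-conjugating enzyme of mitosis. The sequences are from RefSeq (GRCm38.p6), written 5′ to 3′ on the strand of the gene, and the regions are chr7:103827929-103828178 (minus strand) for Hbb-bs, chrX:150547167-150547416 (plus) for Alas2, chr2:121036878-121037127 (minus) for Epb42, chr8:75109259-75109508 (plus) for Mcm5 and chr2:164769679-164769928 (plus) for Ube2c.
Hbb-bs: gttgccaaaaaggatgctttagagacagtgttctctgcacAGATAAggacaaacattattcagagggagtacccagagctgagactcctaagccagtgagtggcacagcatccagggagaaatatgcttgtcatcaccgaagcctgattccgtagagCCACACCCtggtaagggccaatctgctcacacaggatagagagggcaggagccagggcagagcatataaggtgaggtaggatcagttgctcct
Alas2: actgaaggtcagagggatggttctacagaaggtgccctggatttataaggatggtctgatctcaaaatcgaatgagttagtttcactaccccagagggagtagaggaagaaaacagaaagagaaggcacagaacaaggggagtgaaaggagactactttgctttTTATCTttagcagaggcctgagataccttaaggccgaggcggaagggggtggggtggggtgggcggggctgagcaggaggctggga
Epb42: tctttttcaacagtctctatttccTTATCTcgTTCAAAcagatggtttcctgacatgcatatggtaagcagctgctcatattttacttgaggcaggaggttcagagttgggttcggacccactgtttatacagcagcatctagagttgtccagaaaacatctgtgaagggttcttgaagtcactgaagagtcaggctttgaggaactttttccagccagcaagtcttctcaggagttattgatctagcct
Mcm5: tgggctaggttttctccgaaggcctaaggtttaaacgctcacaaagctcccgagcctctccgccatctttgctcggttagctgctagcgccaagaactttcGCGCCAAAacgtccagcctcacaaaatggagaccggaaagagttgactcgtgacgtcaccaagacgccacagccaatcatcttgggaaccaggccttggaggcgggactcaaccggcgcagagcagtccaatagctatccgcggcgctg
Ube2c: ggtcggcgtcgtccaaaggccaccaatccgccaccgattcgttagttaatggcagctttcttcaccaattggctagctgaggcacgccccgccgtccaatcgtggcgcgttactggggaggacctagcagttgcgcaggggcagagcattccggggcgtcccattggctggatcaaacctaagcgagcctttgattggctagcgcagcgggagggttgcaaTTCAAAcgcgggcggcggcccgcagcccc
The capitals in Hbb-bs mark AGATAA, letters of the GATA motif, 210 to 205 bases before the start, and CCACACCC, letters of the KLF1 motif, 93 to 86 bases before it. In Alas2 they mark TTATCT, which is AGATAA on the other strand, 86 to 81 bases before the start, and in Epb42 the same letters at 226 to 221 bases and TTCAAA at 218 to 213 bases. In Mcm5 they mark GCGCCAAA, which is TTTGGCGC, letters of an E2F motif, on the other strand, 149 to 142 bases before the start. In Ube2c they mark TTCAAA, which is TTTGAA on the other strand, the cell cycle homology element of mitotic genes, 29 to 24 bases before the start. Both strands of this window were searched for each motif in each of the genes. Counted by gene, over 27025 genes with a RefSeq start, AGATAA was found in 11.4%, CCACACCC in 3.68%, TTTGGCGC or TTTCCCGC in 1.51%, and TTTGAA in 18.3%. Among the genes of the S phase list, TTTGGCGC or TTTCCCGC was found in 8 of 31 matched genes (25.8%), and among those of the G2 and mitosis list TTTGAA was found in 17 of 44 (38.6%). AGATAA was found in 5 of 14 genes of membrane and blood group proteins, 3 of 9 of the membrane skeleton and 1 of 11 of heme synthesis. CCACACCC was found in 1 of the 14, none of the 9 and none of the 11. Among the 4 adult globin genes, AGATAA and CCACACCC were each found in 1, which was Hbb-bs, and TTTGAA in none. TTTGAA was found in 3 of the 9 skeleton genes as well (33.3%), 6 of the 31 of S phase (19.4%), 1 of the 14 and 1 of the 11. These are matches of letters, and no binding was measured.

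The libraries differed in depth and in composition. The Ery 4 cells held 7954923 UMIs (unique molecular identifiers, each marking 1 captured RNA molecule) in library 1 and 11535778 in library 2, which were 15.3% and 18.4% of all UMIs of the kept cells. Their median was 5790 and 8995 UMIs and 1375 and 1409 genes per cell. Kept cells went down to 504 UMIs in library 1 but only to 4387 in library 2, and 290 Ery 4 cells of library 1 (21.4%) lay below this minimum of library 2. Mitochondrial transcripts made up 10% or more of the UMIs in 168 Ery 4 cells of library 1 (12.4%) and in 14 of library 2 (1.16%), and in 15 (2.00%) and 3 (0.466%) Ery 3 cells, whereas in Ery 5 and Ery 6 no cell reached that share. Of all kept cells, 31 barcodes occurred in both libraries, and 2 of these were Ery 4 in both. The sort before encapsulation cannot remove pairs of cells caught in the same droplet, and such doublets were not searched for here.

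Transcripts of the 4 adult globins, the alpha genes Hba-a1 and Hba-a2 and the beta genes Hbb-bs and Hbb-bt, made up 35.7% of Ery 4 UMIs in library 1 and 56.9% in library 2. This share lay between that of Ery 3 (15.5% and 28.2%) and those of Ery 5 (50.4% and 72.9%) and Ery 6 (57.0% and 77.9%), and it was higher in library 2 in each of these subclusters. Outside these genes, the median Ery 4 cell held 3575 and 3863 UMIs. The corresponding numbers were 7431.5 and 7762 in Ery 3, 2848 and 2655.5 in Ery 5, and 1843 and 1671 in Ery 6, so that the libraries were close to each other and Ery 4 cells held fewer other transcripts than Ery 3 cells and more than Ery 5 and Ery 6 cells. Hba-a1 and Hba-a2, and likewise Hbb-bs and Hbb-bt, are near-identical copies, so the division of UMIs within each pair is uncertain.

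Since globin takes up a different part of the UMIs in each subcluster, levels were expressed as CPM (UMIs scaled to a total of 1000000) of all UMIs and as CPM of the UMIs outside the adult globins. A gene was counted as higher or lower where its level in Ery 4 differed at least 2-fold in the same direction in each library, among genes with at least 50 UMIs in each library over the compared subclusters together. A gene can thus have passed this minimum mainly through the subcluster in which it is high. On all UMIs, 66 of 6839 genes (0.965%) were higher in Ery 4 than in Ery 3 and 1574 (23.0%) lower. Against Ery 5, 951 of 5655 (16.8%) were higher and 11 (0.195%) lower, and against Ery 6, 3127 of 5775 (54.1%) were higher and 122 (2.11%) lower. The median gene was thereby shifted by -0.51 and -0.81 (log2) against Ery 3, by 0.48 and 0.75 against Ery 5 and by 1.11 and 1.51 against Ery 6. Outside the adult globins these shifts were -0.12 and -0.07, 0.10 and 0.08, and 0.53 and 0.54. On that scale, 335 of 6835 genes (4.90%) were higher than in Ery 3 and 589 (8.62%) lower, 286 of 5651 (5.06%) were higher than in Ery 5 and 131 (2.32%) lower, and 1393 of 5771 (24.1%) were higher than in Ery 6 and 406 (7.04%) lower. In 84 of the 335 and 336 of the 589 genes against Ery 3, 160 of the 286 and 19 of the 131 against Ery 5, and 957 of the 1393 and 79 of the 406 against Ery 6, the subcluster with the lower level held fewer than 50 UMIs in at least 1 library. The gene lists below are counted outside the adult globins unless stated otherwise, and these percentages are the background against which each list is to be read.

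The 3 marker genes of Ery 4 were abundant in both libraries, but each was higher in at least 1 later subcluster. Slc4a1 (chromosome 11, 102348824 to 102366203, minus strand), the band 3 anion exchanger of the red cell membrane, was at 1565 CPM of all UMIs (1537 to 1593) and 882 CPM (865 to 899). Ery 3 had 901 and 602 CPM, Ery 5 had 1872 and 954 CPM, and Ery 6 had 1509 and 733 CPM. Slc4a1 was thus higher in Ery 4 than in Ery 3 and lower than in Ery 5 in each library on both scales, with a ratio to Ery 3 of 2.28 and 2.44 outside the adult globins. Relative to Ery 6 the direction depended on the scale, with a ratio of 1.04 and 1.204 on all UMIs and 0.694 and 0.617 outside the adult globins. Alas2 (chromosome X, 150547375 to 150570638, plus strand) was at 2121 CPM (2089 to 2153) and 1263 CPM (1242 to 1284), against 905 and 630 CPM in Ery 3, 2817 and 1516 CPM in Ery 5, and 3790 and 1962 CPM in Ery 6. Its level thus followed the order from Ery 3 to Ery 6 in both libraries. Hbb-bs (chromosome 7, 103826534 to 103828096, minus strand) was at 161975 and 229022 CPM, compared with 69123 and 111365 CPM in Ery 3. Hbb-bs was found in every Ery 4 cell, but also in every granulocyte (G), so that its mere presence did not distinguish the cells. When each cell was thinned to 2300 UMIs, 95.9% and 85.4% of Ery 4 cells held a Slc4a1 UMI and 97.6% and 92.5% an Alas2 UMI. The corresponding shares in granulocytes, which should lack both transcripts, were 8.79% and 12.8% for Slc4a1 and 11.5% and 15.8% for Alas2. Without thinning, with median depths of 5790 and 8995 UMIs in Ery 4 and 10550 and 14769 in granulocytes, Slc4a1 was found in 97.4% and 99.3% of Ery 4 cells and in 29.3% and 36.2% of granulocytes.

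**Figure D1:**
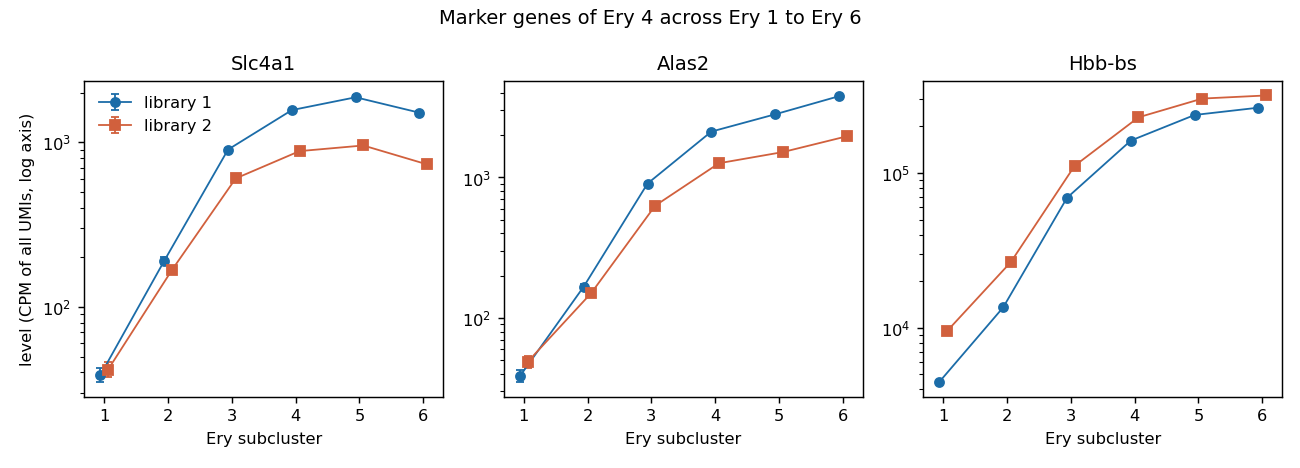
Levels of Slc4a1, Alas2 and Hbb-bs in Ery 1 to Ery 6, as CPM of all UMIs on a log axis. Each point is 1 library and each bar the exact 95% counting interval, often smaller than the point. Alas2 and Hbb-bs are highest in Ery 6, whereas Slc4a1 is highest in Ery 5, with 1872 and 954 CPM.

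Kit (chromosome 5, 75574916 to 75656722), the receptor tyrosine kinase of early progenitors, was near absent from Ery 4. Its 7 UMIs in library 1 and 6 in library 2 gave levels of 0.880 and 0.520 CPM, which was below that of free RNA, measured in barcodes with 1 to 50 UMIs, at 10.6 and 8.67 CPM. A Kit UMI was found in 0.198% and 0.153% of thinned Ery 4 cells, against 3.97% and 4.03% of granulocytes. Among the 6 early progenitor genes with enough UMIs against Ery 3, 3 were at least 2-fold lower in Ery 4 and none higher. These were Npm1, a nucleolar chaperone, Ncl, which encodes nucleolin, and the transcription factor gene Myc. Npm1 was at 233 and 147 CPM in Ery 4, against 1084 and 1090 CPM in Ery 3, so the ratio outside the adult globins was 0.283 and 0.224. Myc was at 4.02 and 3.12 CPM, against 20.2 and 14.1 CPM in Ery 3, and with 32 and 36 UMIs in Ery 4 it passed the minimum through Ery 3. The summed level of the list outside the adult globins was 812 and 823 CPM in Ery 4, compared with 2199 and 2680 CPM in Ery 3 and 656 and 615 CPM in Ery 5. In this sum Ery 4 was closer to Ery 5 than to Ery 3, but in Ery 4 it came mainly from Npm1 and Ncl. On all UMIs the list was at 522 and 355 CPM in Ery 4, of which Npm1 made up 233 and 147 CPM. Ncl was at 231 and 185 CPM in Ery 4 without its finer cluster rich in mitochondrial transcripts, described below. The list held 16 genes, of which 6 had enough UMIs against Ery 3. The sum was therefore not read as a measure of early progenitor genes in general.

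Among the embryonic globins, Hbb-bh1 (chromosome 7, 103841637 to 103843164, minus strand) was higher in Ery 4 than in Ery 3 in both libraries. Its level was 4727 CPM and 2769 CPM of all UMIs in Ery 4, against 1502 and 1065 CPM in Ery 3. This level came from a minority of cells. The median Ery 4 cell held 2 Hbb-bh1 UMIs in each library, and 20.9% and 23.4% of cells held none. By contrast, 260 cells of library 1 (19.2%, 17.1 to 21.4%) and 236 of library 2 (19.6%, 17.4 to 22.0%) held at least 20 UMIs, and these cells contained 91.6% of the Hbb-bh1 UMIs of Ery 4 in each library. The highest cells held 907 and 1010 UMIs. A low number of Hbb-bh1 UMIs was also found outside the erythroid cells, since 58.0% and 67.7% of granulocytes held at least 1.

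The share of cells with at least 20 Hbb-bh1 UMIs was 12.6% and 11.5% in Ery 3, 20.7% and 22.0% in Ery 5, and 24.9% and 23.4% in Ery 6. It was thus lower in Ery 3 and higher in Ery 5 and Ery 6 than in Ery 4 in both libraries, but these are shares of cells of 1 liver, and cells are not replicates. By a limit that takes depth into account, Hbb-bh1 made up at least 0.5% of the UMIs in 229 Ery 4 cells (16.9%) and 164 cells (13.6%). Most cells with at least 20 Hbb-bh1 UMIs did not carry the Hbb-y level of EryP, the primitive erythroblasts of this data set. Their median Hbb-y count was 4 and 3 UMIs, the same as in the other Ery 4 cells, and they held 0.198 and 0.0329 Hbb-y UMIs per Hbb-bh1 UMI, compared with 20.4 and 18.2 in EryP. The value of library 1 rested on 2 of its 260 cells, in which Hbb-y and the embryonic alpha globin gene Hba-x made up at least 5% of UMIs, and without them it was 0.0372. The adult genes Hbb-bs and Hbb-bt made up 24.9% and 36.2% of the UMIs in the Hbb-bh1-high cells and 25.6% and 36.8% in the others. Both limits were set with these values in view.

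**Figure D2:**
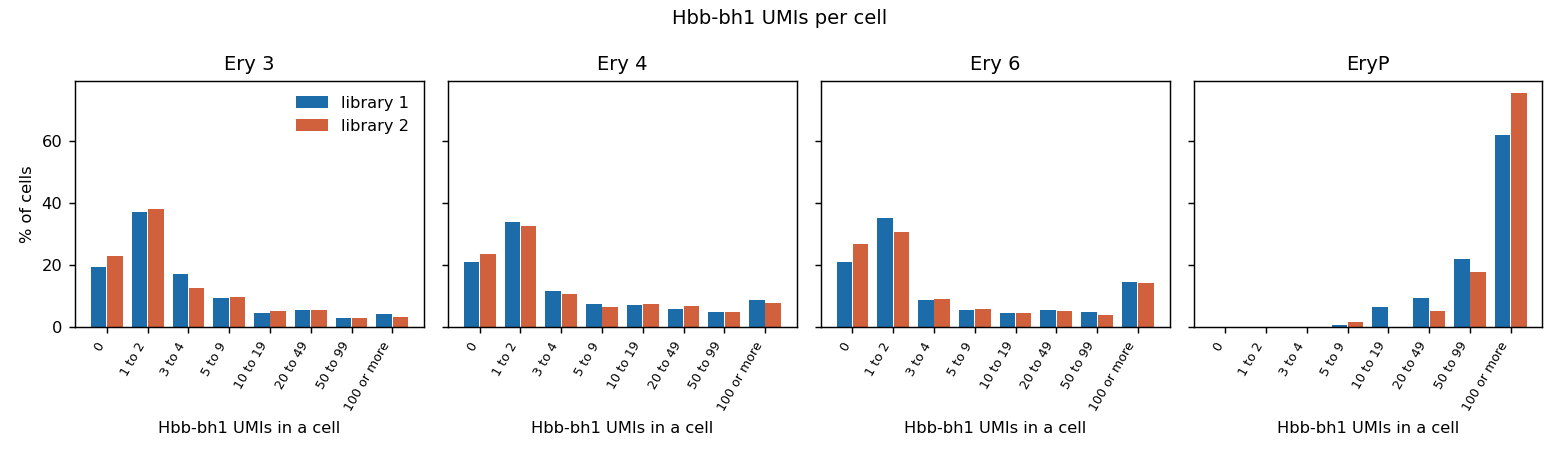
Hbb-bh1 UMIs per cell in Ery 3, Ery 4, Ery 6 and EryP, as the percentage of the cells of each library in each range of UMIs. Most Ery 4 cells hold 0 to 4 UMIs, and 8.62% and 7.90% of them hold 100 or more.

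Hbb-y, another embryonic globin gene, had opposite directions in the libraries, of which that of library 2 rested on a few cells. Hbb-y (chromosome 7, 103851749 to 103853216, minus strand) was at 1486 CPM in Ery 4 of library 1 and 351 CPM in library 2, and the ratio to Ery 3 was 2.79 in library 1 but 0.170 in library 2. In library 1, 10 of the 1357 Ery 4 cells held 51.7% of the Hbb-y UMIs, and 1 cell held 4319. Without the 3 Ery 4 cells in which Hbb-y and Hba-x made up at least 5% of UMIs, a limit set with these values in view, Hbb-y was at 747 CPM in library 1, against 480 CPM in Ery 3 without its 1 such cell. In library 2, Ery 4 held no such cell and Ery 3 held 4, and without these Ery 3 went from 2058 to 328 CPM, against 351 CPM in Ery 4. Of the genes that act on globin switching, Bcl11a encodes a repressor of embryonic and fetal globin genes. It was lower in Ery 4 than in Ery 3, with 35.7 and 21.6 CPM against 109 and 91.4 CPM of all UMIs. Its level was higher than in Ery 5, which had 8.22 and 3.07 CPM from only 24 and 18 UMIs. Zbtb7a, another such repressor, was highest in Ery 4, with 190.3 and 135 CPM, against 138 and 122 CPM in Ery 3 and 109 and 79.2 CPM in Ery 5. Outside the adult globins Zbtb7a remained highest in Ery 4, by a ratio of 1.35 and 1.07 to Ery 5. The listed genes Ahsp, Selenow and Tlcd4 were not analysed here.

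Outside the adult globins, the heme synthesis genes summed to 1.49 and 1.60 times their level in Ery 3, but on all UMIs the ratio was 1.14 in library 1 and 0.960 in library 2, so that the direction differed. Of 13 genes with enough UMIs, 12 had a ratio to Ery 3 above 1 in both libraries outside the adult globins, with a median ratio of 1.52 and 1.58, and 2 were at least 2-fold higher. These 2 were Alas2, with 3.08 and 3.34, and Fech, which encodes the ferrochelatase that inserts iron into heme, with 2.14 and 2.25. Fech was at 1369 and 915 CPM of all UMIs in Ery 4, against 841 and 678 CPM in Ery 3 and 2177 and 1189 CPM in Ery 6. On all UMIs 1 gene of the list was at least 2-fold higher than in Ery 3 and none lower, and Fech did not reach 2-fold. Tmem14c, which encodes a transporter for heme precursors in the mitochondrial inner membrane, had the opposite order. It was at 1792 and 1319 CPM of all UMIs in Ery 4, between 3199 and 2495 CPM in Ery 3 and 441 and 272 CPM in Ery 5. The ratio of Ery 4 to Ery 5 was 3.14 and 3.04 outside the adult globins, and Tmem14c was the only gene of the list past 2-fold against Ery 5.

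In iron handling, where the summed level had a ratio of 1.53 and 1.61 outside the adult globins but 1.16 and 0.965 on all UMIs, 2 of 14 genes were at least 2-fold higher in Ery 4 than in Ery 3 outside the adult globins, and none was lower. On all UMIs no gene of the list was past 2-fold against Ery 3. Slc25a37, the mitochondrial iron importer mitoferrin 1, was at 1819 and 1113 CPM of all UMIs, compared with 900 and 631 CPM in Ery 3 and 2455 and 1297 CPM in Ery 6. Ncoa4, the ferritin receptor of autophagy, was at 18.0 and 8.49 CPM against 7.41 and 5.99 CPM in Ery 3, where it held only 57 and 49 UMIs. No gene of this list differed 2-fold from Ery 5 on either scale. Tfrc, the transferrin receptor, was at 558 and 344 CPM in Ery 4 and at 560 and 302 CPM in Ery 5. Against Ery 6, the iron chaperone gene Pcbp1 and the ferrireductase gene Steap3 were among the higher genes, and Ncoa4 and Slc25a37 were lower, whereas on all UMIs 6 genes were higher and none lower. Pcbp1 was at 356 and 199 CPM in Ery 4, compared with 93.99 and 40.5 CPM in Ery 6.

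Some genes for the red cell membrane and its skeleton were higher in Ery 4 than in Ery 3, and their number depended on the scale. On all UMIs, none of the 14 skeleton genes and 1 of the 19 membrane and blood group genes, Slc2a1, was at least 2-fold higher, and the counts that follow are those outside the adult globins. The summed skeleton list had a ratio of 1.64 and 1.53 outside the adult globins but of 1.24 and 0.921 on all UMIs. Of 14 skeleton genes, 12 had a ratio above 1 in both libraries and 5 were at least 2-fold higher, among them Epb41 (protein 4.1), Epb42 (protein 4.2), Dmtn (dematin) and Tmod1 (tropomodulin 1). Epb41 was at 164 and 90.4 CPM of all UMIs in Ery 4, 79.0 and 49.8 CPM in Ery 3 and 330.3 and 159 CPM in Ery 6, and its ratio to Ery 3 outside the adult globins was 2.72 and 3.02. Of 19 membrane and blood group genes, 18 had a ratio above 1 in both libraries, 5 were at least 2-fold higher and 1 lower. Among the higher genes were Slc4a1, Rhd, Kel and Slc2a1. The lower gene was Aqp1, which encodes a water channel, with 8.55 and 6.24 CPM against 33.7 and 26.9 CPM in Ery 3. The summed level of the membrane and blood group list was 42904 and 36800 CPM outside the adult globins, which was 1.85 and 2.00 times that of Ery 3, and 1.41 and 1.2 times on all UMIs.

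Slc2a1, the glucose transporter GLUT1, differed from both Ery 3 and Ery 6. It was at 664 CPM (646 to 682) and 355 CPM (345 to 366) of all UMIs in Ery 4, against 213 and 138 CPM in Ery 3, 896 and 425 CPM in Ery 5, and 2490 and 1206 CPM in Ery 6. Slc2a1 was counted as higher than Ery 3 and lower than Ery 6 on both scales. Against Ery 5, no gene of the skeleton list and 1 gene of the membrane list passed 2-fold, which was Car1, the gene of carbonic anhydrase 1. Car1 was at 116 and 74.1 CPM in Ery 4, compared with 33.9 and 17.2 CPM in Ery 5. Thus 1 of the 33 genes of these lists passed 2-fold against Ery 5, where over all genes outside the adult globins 5.06% were higher and 2.32% lower in Ery 4, so that the count was not read as particular to these groups.

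Of 20 erythroid transcription factor genes, 4 were at least 2-fold higher in Ery 4 than in Ery 3 and none lower, and on all UMIs 1 was higher and 1 lower. Klf3 encodes a repressor related to KLF1, and was at 243 and 157 CPM of all UMIs in Ery 4, 131 and 84.3 CPM in Ery 3, and 388 and 220 CPM in Ery 5. Mxd1 and Mxi1 encode partners of MAX that oppose MYC. Mxd1 was at 46.9 and 30.9 CPM, against 21.5 and 13.1 CPM in Ery 3 and 119 and 62.1 CPM in Ery 6, and it was past 2-fold in both comparisons on both scales. E2f2, the remaining gene, was at 183 and 114 CPM against 108 and 75.7 CPM in Ery 3. On all UMIs, the genes of the factors GATA1 and KLF1 did not reach a 2-fold difference between Ery 4 and Ery 3 or Ery 5. Gata1 was at 238 and 151 CPM in Ery 4, 235 and 176 CPM in Ery 3, and 244 and 140.2 CPM in Ery 5, and Klf1 was at 879 and 546 CPM in Ery 4, 829 and 635 CPM in Ery 3, and 803 and 453 CPM in Ery 5. For both, the direction against Ery 3 differed between the libraries on all UMIs, and outside the adult globins the ratio was 1.33 and 1.43 for Gata1 and 1.39 and 1.43 for Klf1.

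Some genes of the erythropoietin receptor pathway differed between Ery 4 and its neighbors. Of 10 genes with enough UMIs against Ery 3, 4 were at least 2-fold higher and 2 lower, and of 8 against Ery 5, none was higher and 3 were lower. On all UMIs, 2 were higher and 2 lower than in Ery 3, and 1 was higher and none lower than in Ery 5. Epor itself, the receptor gene, was at 216 and 149.7 CPM of all UMIs in Ery 4, 199 and 182 CPM in Ery 3, and 189 and 116 CPM in Ery 5. Bcl2l1, which encodes the survival factor BCL-XL, was at 115 CPM (107 to 123) and 77.2 CPM (72.3 to 82.5) in Ery 4. It was at 39.1 and 31.9 CPM in Ery 3, 231 and 129 CPM in Ery 5, and 454 and 256 CPM in Ery 6. Bcl2l1 was thus higher in each successive subcluster, and outside the adult globins the ratio was 3.86 and 4.03 to Ery 3 and 0.384 and 0.378 to Ery 5. Pim1, a survival kinase gene, was at 488 and 341 CPM in Ery 4 against 199 and 197 CPM in Ery 3 and 859 and 569 CPM in Ery 5. Socs3, a feedback inhibitor of the receptor, was at 19.5 and 11.7 CPM, compared with 9.23 and 3.91 CPM in Ery 3 and 34.6 and 18.95 CPM in Ery 5. The feedback inhibitor gene Cish was also higher than in Ery 3, whereas the 2 lower genes rested on few UMIs, with 26 and 22 in Ery 4 against 68 and 52 in Ery 3 for Stat5b, and 15 and 16 against 42 and 54 for Sh2b3. Of the 4 higher genes, Socs3 held 71 and 32 UMIs in Ery 3.

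In the cell cycle lists, Ery 4 had more transcripts of DNA replication and fewer of mitosis than Ery 5. The S phase list had a summed level of 9188 and 9069 CPM outside the adult globins in Ery 4. This was close to Ery 3 (10738 and 9950 CPM), above Ery 5 (6392 and 6574 CPM) and far above Ery 6 (2051 and 2004 CPM). The G2 and mitosis list was at 25326 and 23158 CPM in Ery 4, above Ery 3 (16508 and 14685 CPM) and Ery 6 (12541 and 11529 CPM) but below Ery 5 (46105 and 42380 CPM). Apart from the S phase list in Ery 3 and Ery 4, the differences between these subclusters were larger than those between the libraries. On all UMIs the S phase list was at 5905 and 3909 CPM in Ery 4, against 9072 and 7143 CPM in Ery 3. Its ratio to Ery 3 was thus 0.651 and 0.547 on this scale, farther from 1 than outside the adult globins (0.856 and 0.911). The order of the subclusters was the same. The order of the G2 and mitosis list between Ery 3 and Ery 4 was not, since its ratio to Ery 3 was 1.17 in library 1 and 0.947 in library 2.

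**Figure D3:**
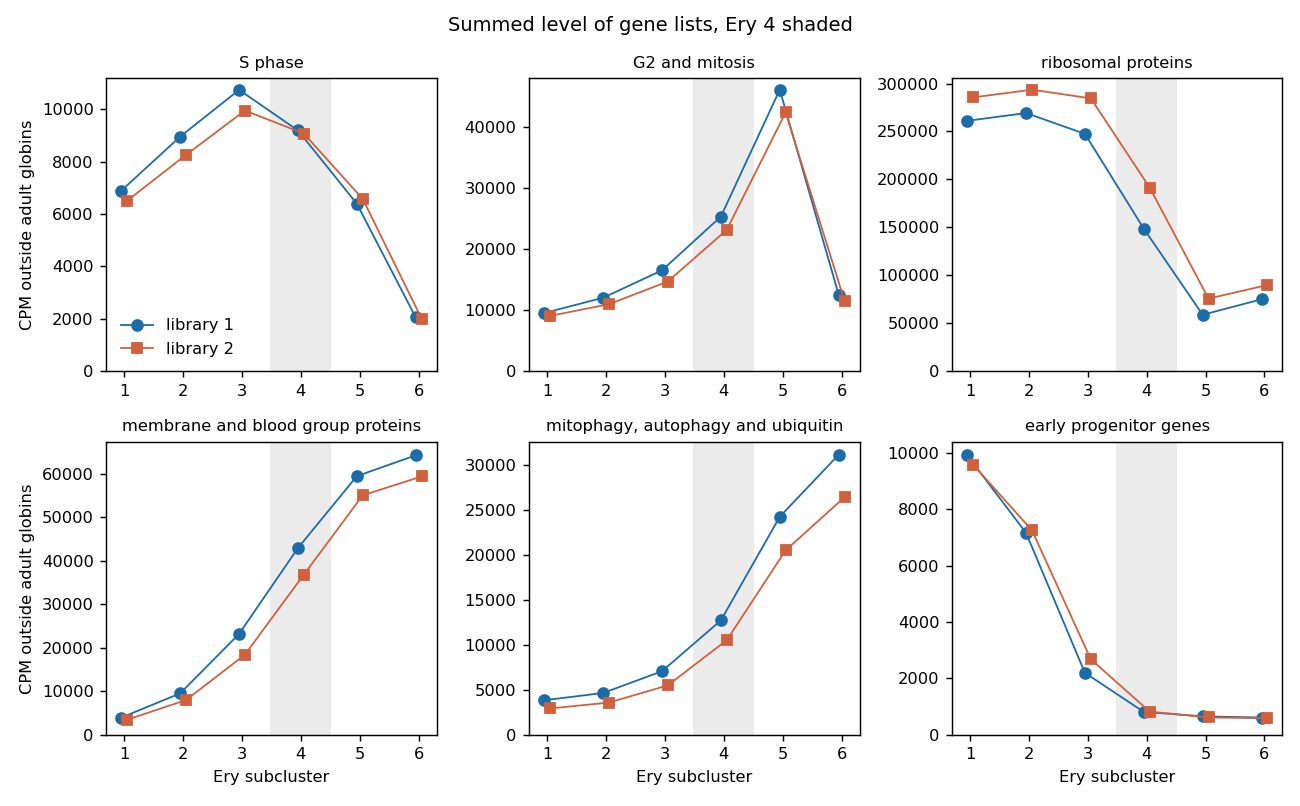
Summed level of 6 gene lists in Ery 1 to Ery 6, as CPM of the UMIs outside the 4 adult globin genes, with 1 line for each library and Ery 4 shaded. The S phase list is highest in Ery 3, the G2 and mitosis list in Ery 5 (46105 and 42380 CPM), and the ribosomal protein list is lower in Ery 4 than in Ery 3 and lower again in Ery 5.

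Of 40 S phase genes, 3 were at least 2-fold lower in Ery 4 than in Ery 3 and none higher, whereas 17 of 39 were higher than in Ery 5 and 39 of 40 were higher than in Ery 6. On all UMIs, 16 were lower than in Ery 3, 27 higher than in Ery 5 and 39 higher than in Ery 6. Over all genes outside the adult globins, 8.62% were lower than in Ery 3, so the 3 of 40 were not read as particular to this list. Of the 17 and 39 outside the adult globins, 9 held fewer than 50 UMIs in Ery 5 and 18 in Ery 6 in at least 1 library. The helicase subunit gene Mcm5 was at 115 and 86.8 CPM of all UMIs in Ery 4, against 233 and 223 CPM in Ery 3, 25.7 and 20.5 CPM in Ery 5, and 18.4 and 8.18 CPM in Ery 6. Its ratio to Ery 3 was 0.492 and 0.390 on all UMIs and 0.647 and 0.649 outside the adult globins. Pcna, the sliding clamp of the replication fork, was at 347 and 198 CPM in Ery 4 and at 103 and 59.6 CPM in Ery 5. Both genes were past 2-fold against Ery 5 and Ery 6 on both scales. The genes lower than in Ery 3 were Dut (dUTPase), Nasp, a histone chaperone gene, and Cdca7. Not all genes of the list followed this course. Rrm2, a subunit of ribonucleotide reductase, was at 1185 and 777 CPM in Ery 4, 1202 and 917 CPM in Ery 3 and 1041 and 571 CPM in Ery 5, and Ery 6, at 244 and 136 CPM, was the only one of these from which it differed 2-fold in both libraries.

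Of 50 genes of G2 and mitosis, 8 were at least 2-fold higher in Ery 4 than in Ery 3 and none lower, and 12 were lower than in Ery 5 and none higher. Against Ery 6, 34 were higher, 9 of them with fewer than 50 UMIs in Ery 6 in at least 1 library, and 1 was lower, which was Pttg1 (securin). On all UMIs none was higher and 1 lower than in Ery 3, none was past 2-fold against Ery 5, and 44 were higher than in Ery 6. Ube2c was at 1890 CPM (1860 to 1920) and 1087 CPM (1068 to 1106) of all UMIs in Ery 4, 968 and 702 CPM in Ery 3, 4275 and 1997 CPM in Ery 5, and 1111 and 488 CPM in Ery 6. Outside the adult globins its ratio was 2.57 and 2.58 to Ery 3 and 0.341 and 0.342 to Ery 5. Nusap1 and Cenpf, genes of spindle and kinetochore proteins, had the same course, and so had Cenpe and Anln. Nusap1 was at 341 and 211 CPM in Ery 4, 197 and 149 CPM in Ery 3 and 665 and 337 CPM in Ery 5. Top2a, the topoisomerase of chromosome condensation, was at 579 and 417 CPM in Ery 4 and 62.2 and 31.6 CPM in Ery 6, whereas Ery 5 had 641 and 408 CPM. The deposited phase calls gave no usable comparison, because they differed between the libraries. G2M was called for 728 Ery 4 cells of library 1 and 151 of library 2, and 724 of those 728 cells had a G2M score of exactly 0, a value that no Ery 4 cell of library 2 had.

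Several genes of the cell cycle exit list differed between Ery 4 and Ery 3. The list holds inhibitor genes such as Cdkn2d together with the kinase gene Cdk4 and D cyclin genes, so its counts mix these roles. Of 13 genes, 5 were at least 2-fold higher than in Ery 3 and 3 lower, and on all UMIs 2 were higher and 3 lower. Of the 5, Ccng2, with 17 and 6 UMIs, and Cdkn1b, with 43 and 43, held fewer than 50 UMIs in Ery 3, and of the 3, Ccnd2 held 32 and 23 UMIs in Ery 4. Ccng2 was no longer counted on either scale without cluster 13, but its ratio to Ery 3 stayed past 2-fold in each library. Without that cluster the ratio was 3.626 and 4.999 on all UMIs and 4.812 and 8.302 outside the adult globins. The call was therefore not lost through the fold. Cdkn2d, the gene of the CDK4 and CDK6 inhibitor p19, had the highest ratio to Ery 3 among all genes of at least 100 CPM. It was at 495 CPM (479 to 510) and 280.4 CPM (271 to 290) of all UMIs in Ery 4, against 136 and 81.4 CPM in Ery 3. Its ratio was 3.65 and 3.45 on all UMIs and 4.79 and 5.74 outside the adult globins. It was higher still in Ery 5, at 1132 and 542 CPM, and lower in Ery 6, at 186 and 86.5 CPM. Cdkn1b, which encodes the inhibitor p27, was at 11.2 and 6.85 CPM in Ery 4 against 5.59 and 5.25 CPM in Ery 3 and 29.3 and 16.4 CPM in Ery 6. Cdk4, the kinase gene itself, was at 48.9 and 33.5 CPM in Ery 4, compared with 275 and 260 CPM in Ery 3, a ratio of 0.234 and 0.215 outside the adult globins. The cyclin gene Ccnd2 was also lower than in Ery 3, whereas Ccnd3, another D cyclin gene, did not reach 2-fold, at 952 and 682 CPM against 1124 and 878 CPM of all UMIs, with a ratio above 1 (1.11 and 1.29) outside the adult globins.

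Outside the adult globins, several genes of chromatin differed between Ery 4 and Ery 3. Of 15 genes of linker histones and histone variants, 8 were at least 2-fold higher in Ery 4 than in Ery 3 and none lower. Against Ery 6, 11 were higher, 3 of them with fewer than 50 UMIs in Ery 6 in at least 1 library. On all UMIs, 1 was higher and 1 lower than in Ery 3, and the ratio of the summed list was 1.18 and 0.941. Hist1h1c, a linker histone gene, was at 416 and 234 CPM of all UMIs in Ery 4, 156 and 112 CPM in Ery 3, and 561 and 287 CPM in Ery 5. H2afx, a variant histone gene of the DNA damage response, was at 714 and 391.6 CPM in Ery 4, 356 and 229 CPM in Ery 3, 1171 and 555 CPM in Ery 5, and 123 and 56.0 CPM in Ery 6. The linker histone gene H1f0 was lower than in Ery 3, with 38.1 and 17.1 CPM against 91.8 and 80.3 CPM, a difference past 2-fold in library 2 but not in library 1 outside the adult globins. Histone genes resemble one another, so single members are uncertain. Hist1h2ap was at 2221 CPM outside the adult globins in library 1 and at 65.2 CPM in library 2, the widest gap between the libraries.

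Among genes of late maturation, Xpo7 and Tmcc2 were at least 2-fold below their level in Ery 6 on both scales, but most genes of their list were not. Of 19 genes of nuclear condensation and enucleation, 5 were at least 2-fold higher than in Ery 3, namely Lbr (lamin B receptor), Mxi1, Rnf123, Tmcc2 and Xpo7, and on all UMIs 2 were higher and 1 lower. Against Ery 6, 2 of the 19 were higher and 4 lower, with a median ratio of 1.04 and 0.949, and on all UMIs 8 were higher and 2 lower, with a median of 1.55 and 1.85. The 2 that were lower on both scales were Xpo7 and Tmcc2, whereas Lbr was higher on all UMIs, and Mxi1 and Rnf123 were past 2-fold on neither scale. Xpo7, which encodes a nuclear exporter that removes histones in erythroblasts, was at 39.1 CPM (34.9 to 43.7) and 23.2 CPM (20.5 to 26.2) of all UMIs in Ery 4, against 18.1 and 11.4 CPM in Ery 3 and 59.9 and 24.8 CPM in Ery 5. Ery 6 had 691 and 351 CPM, and the ratio of Ery 4 to Ery 6 was 0.0566 and 0.0662 on all UMIs. The difference of Xpo7 from Ery 3 rested in part on cluster 13, a finer cluster of Ery 4 described below, without which Xpo7 was at 32.2 and 13.2 CPM and its ratio to Ery 3 outside the adult globins was 2.36 and 1.92, no longer past 2-fold in library 2. Tmcc2, which encodes a membrane protein of the endoplasmic reticulum, was at 254 and 162 CPM in Ery 4, 97.4 and 76.7 CPM in Ery 3, 438 and 225 CPM in Ery 5 and 3051 and 1645 CPM in Ery 6. Without cluster 13 its ratio to Ery 3 was 2.39 and 1.81 on all UMIs, and outside the adult globins it remained past 2-fold. For both genes, the step from Ery 5 to Ery 6 was the largest of the 3 steps from Ery 3 onward.

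Some genes of mitophagy, autophagy and ubiquitin were also higher in Ery 4 than in Ery 3 outside the adult globins. Of 25 genes with enough UMIs, 7 were at least 2-fold higher in Ery 4 than in Ery 3 and none lower, and 16 of 24 were lower than in Ery 6. On all UMIs none was past 2-fold against Ery 3 and 9 were lower than in Ery 6. The summed level was 12722 and 10523 CPM outside the adult globins in Ery 4, 7069 and 5502 CPM in Ery 3, 24248 and 20514 CPM in Ery 5 and 31145 and 26426 CPM in Ery 6. The list also holds Ube2c, counted above with the mitotic genes. Bnip3l, the mitochondrial receptor NIX through which erythroid cells remove mitochondria, was at 436 and 258 CPM of all UMIs in Ery 4, 326 and 231 CPM in Ery 3, and 1103 and 522 CPM in Ery 6. Its ratio to Ery 3 was 1.76 and 1.86 outside the adult globins and did not reach 2-fold. The ubiquitin ligase gene Mkrn1 was at 332 and 188 CPM in Ery 4, against 190 and 133 CPM in Ery 3 and 1340 and 662 CPM in Ery 6. Ube2o, which encodes the enzyme that tags ribosomal proteins for removal in red cells, was at 45.5 and 23.4 CPM in Ery 4, against 18.2 and 14.5 CPM in Ery 3 and 183 and 90.2 CPM in Ery 6.

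Transcripts of ribosomal proteins separated Ery 4 most clearly from Ery 5. The 83 ribosomal protein genes summed to 148650 and 191504 CPM outside the adult globins in Ery 4, to 247537 and 284554 CPM in Ery 3, to 58811 and 75683 CPM in Ery 5 and to 74966 and 89855 CPM in Ery 6. Of these, 80 had enough UMIs to compare, and all 80 had a ratio to Ery 3 below 1 in both libraries, with a median of 0.601 and 0.666, and 1 of them was past 2-fold. On all UMIs, 59 of the 80 were at least 2-fold lower than in Ery 3. Against Ery 5, 70 of 80 were at least 2-fold higher outside the adult globins and 79 on all UMIs, and against Ery 6, 36 and 77 of 80. Ranked by the smaller of the ratios of the 2 libraries, Rpl12 was first against Ery 5 among all genes of at least 100 CPM. It was at 718 and 611 CPM of all UMIs in Ery 4 against 129 and 94.9 CPM in Ery 5. Of the first 10 genes in this ranking, 8 encode ribosomal proteins, and the remaining genes were Tmem14c and the mitochondrial gene mt-Nd2. Ribosomal protein genes have many near-identical pseudogenes, so the level of single members is uncertain, and Rpl35 was at 1339 and 259 CPM outside the adult globins in the libraries.

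Of 96 nuclear genes of the respiratory chain, 5 were at least 2-fold lower in Ery 4 than in Ery 3 and none higher, and of 90 against Ery 5, 6 were higher. On all UMIs, 18 were lower than in Ery 3 and 29 higher than in Ery 5. Of 44 proteasome genes, 2 were lower than in Ery 3, and 8 were on all UMIs. Over all genes outside the adult globins, 8.62% were lower than in Ery 3 and 5.06% higher than in Ery 5. The counts of these 2 lists on that scale were therefore not read as particular to them. Among the lower genes, Ndufaf6, Uqcc1 and Psmg1 held fewer than 50 UMIs in Ery 4 in each library. The 12 mitochondrially encoded genes had no member past 2-fold against Ery 3 on either scale. Against Ery 5, 3 were higher outside the adult globins and 11 on all UMIs, but 6 of the 11 (mt-Atp6, mt-Atp8, mt-Co2, mt-Co3, mt-Nd4l and mt-Nd5) were no longer past 2-fold without cluster 13. Of 15 glycolysis genes, 1 was higher than in Ery 3, which was Slc2a1, and 3 were lower, namely Gpi1, Ldha and Pfkm, and on all UMIs 1 was higher and 5 lower. Of 14 genes of stress kinases and factors, 2 were higher than in Ery 3, Eif2ak1, which encodes the heme-regulated inhibitor of translation, and Ppp1r15a. The 3 lower genes were the chaperone genes Hsp90ab1, Hspa8 and Hspa9, and on all UMIs none was higher and 4 were lower. Among 21 antioxidant genes, Gpx1 was higher, at 8412 and 5127 CPM of all UMIs against 5016 and 3744 CPM in Ery 3, and Prdx6 was lower, at 105 and 73.2 CPM against 295 and 286 CPM. Of 10 genes of the Bcl2 family and survival, Bcl2l1 was higher than in Ery 3 and Bak1 lower. On all UMIs Gpx1 did not reach 2-fold, and 2 of the 10 survival genes were lower, both, Bak1 among them, with fewer than 50 UMIs in Ery 4 in at least 1 library.

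**Figure D4:**
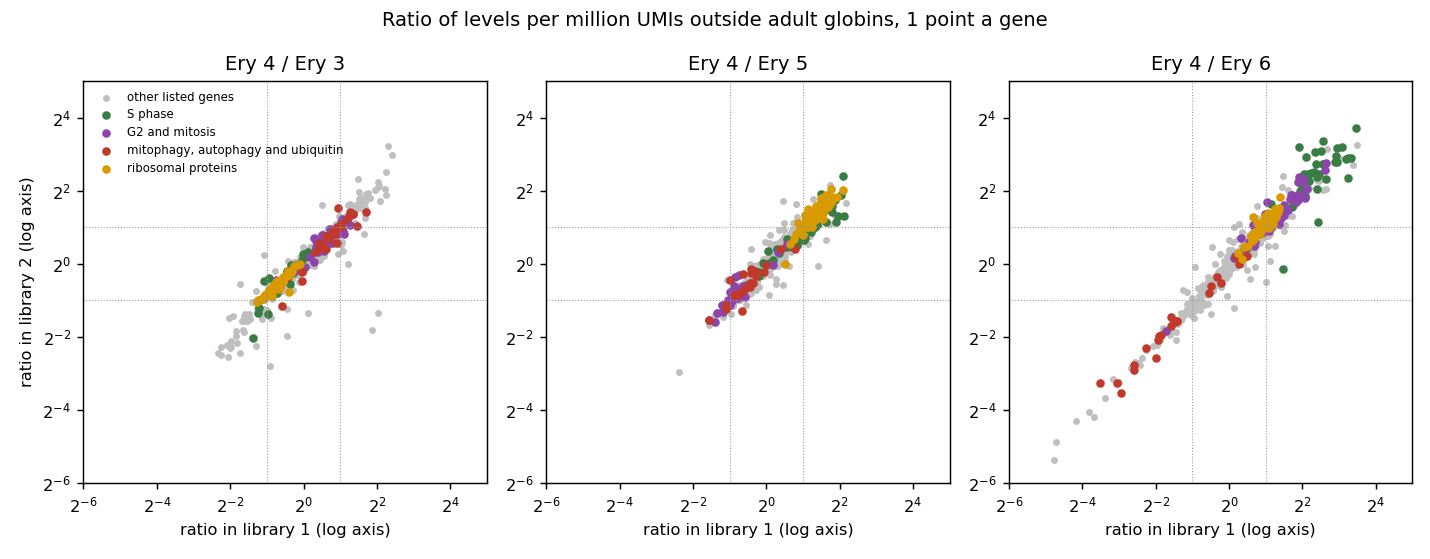
Ratio of the level in Ery 4 to that in Ery 3, Ery 5 and Ery 6, as CPM outside the adult globins. Library 1 is on the x axis and library 2 on the y axis, both log axes. Each point is 1 listed or named gene with enough UMIs, and the other compared genes are not drawn. The dotted lines mark 2-fold, and the genes of the ribosomal protein list lie below 1 against Ery 3 and mostly above 2 against Ery 5, where 70 of 80 passed it in each library.

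Single genes of at least 100 CPM were ranked by the smaller change of the libraries. Those with the largest ratio to Ery 3 after Cdkn2d were Hist1h2bc, Hbb-bh1, Slc2a1, Hba-a2, Ypel3, Tmcc2, Hist1h1c, Fn3k and Hbb-bs. The genes with the smallest ratio to Ery 3 were C1qbp, Lyar, Fabp5, Cdk4, Hspe1, Hmgn1, Hspd1, Ybx1, Hspa9 and Npm1. They include the mitochondrial chaperone genes Hspe1, Hspd1 and Hspa9. C1qbp, which encodes a mitochondrial matrix protein, was at 49.3 and 32.7 CPM of all UMIs in Ery 4, compared with 329 and 295 CPM in Ery 3, a ratio of 0.150 and 0.111. Fabp5, a fatty acid binding protein gene, was at 187 and 143 CPM against 1165 and 1148 CPM. Among the genes lowest relative to Ery 5 were Cdkn2d, Ube2c, Pim1, Bcl2l1, Fam220a, Nusap1, Malat1, Fzr1 and Hist1h2bc. Malat1, a nuclear long non-coding RNA, was at 4735 and 2847 CPM in Ery 4 and 8382 and 4394 CPM in Ery 5. Against Ery 6, the largest ratios were those of Lig1, Fbxo5, 2810417H13Rik, Pcna, Top2a, Slbp, Pgp, Hist1h1b, Smc6 and Orc6. Lig1, the DNA ligase of replication, was at 196 and 162 CPM in Ery 4 and 14.4 and 11.3 CPM in Ery 6. Among the smallest ratios to Ery 6 were those of Tcp11l2, Xpo7, Tmcc2, Slfn14, Bpgm, Tbcel, Bsdc1, Ncf4 and Ube2b, of which Bpgm makes the regulator of hemoglobin oxygen affinity and was at 76.6 and 43.7 CPM against 716 and 375 CPM.

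Few genes were highest in Ery 4. Of 682 genes with at least 100 CPM of all UMIs in each library, 22 were higher in Ery 4 than in Ery 3, Ery 5 and Ery 6 in both libraries. Their ratio to the next highest subcluster was small, but some ratios to Ery 6 were larger. Zbtb7a was at 190.3 and 135 CPM in Ery 4 against 61.7 and 40.1 CPM in Ery 6. Mgst3, which encodes a membrane-bound glutathione transferase, led with 3263 and 2112 CPM against 2348 and 1696 CPM in Ery 3 and 2256 and 1333 CPM in Ery 5, a smallest ratio of 1.25. Outside the adult globins, Mgst3 was at 5077 and 4900 CPM in Ery 4 and 5170 and 5482 CPM in Ery 6, so that its highest level was no longer in Ery 4. The next genes were Tmem256, Nxpe2, Mt1, Lpcat1, Btg2, Zbtb7a, Snrnp25, Ehbp1l1 and Arf5. Mt1, the metallothionein gene, was at 2833 and 2042 CPM in Ery 4, compared with 2340 and 1500 CPM in Ery 5. Of these 10 genes, Zbtb7a alone kept its highest level in Ery 4 in both libraries outside the adult globins.

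Within Ery 4, the deposited table distinguishes 4 finer clusters, numbered 6, 1, 4 and 13. Clusters 6, 1 and 4 held 368, 394 and 372 cells in library 1 and 318, 415 and 348 cells in library 2. In adult globin and ribosomal protein content they differed in the same direction as Ery 3 and Ery 5 do. Adult globins made up 29.7% and 48.4% of UMIs in cluster 6, 37.0% and 56.9% in cluster 1, and 43.2% and 64.5% in cluster 4. The ribosomal protein list had the reverse order, with 183564 and 232704 CPM outside the adult globins in cluster 6, 147705 and 192039 CPM in cluster 1 and 101865 and 139033 CPM in cluster 4. The S phase list was at 10404 and 10139 CPM in cluster 6, 8846 and 8991 CPM in cluster 1 and 8977 and 8381 CPM in cluster 4, so that clusters 1 and 4 had no common order in the libraries on this scale, whereas on all UMIs cluster 1 was above cluster 4 in both. The G2 and mitosis list was at 22635 and 19979 CPM in cluster 6, 24456 and 23078 CPM in cluster 1 and 32924 and 29270 CPM in cluster 4, but on all UMIs cluster 1 was lowest of the 3. Relative to the other Ery 4 cells on all UMIs, cluster 6 was led by Car1 (ratio 2.58 and 2.17), Fabp5, Rps18, Rfc4 and Eef1b2, and cluster 4 by Cdkn2d (1.97 and 1.75), Hist1h1b, Ube2c, Spc25 and H2afx. Cluster 1 was led by Tmcc2, but its ratio was only 1.33 and 1.16.

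Cluster 13 stood apart and differed between the libraries. It held 223 cells in library 1 and 121 in library 2, with a median of 1857 and 6876 UMIs and 597 and 1081 genes per cell. Mitochondrial transcripts made up a median of 20.1% of the UMIs of its cells in library 1 and 4.52% in library 2, compared with 2.22 to 3.12% and 1.46 to 2.28% in the other finer clusters. It contained 166 of the 168 Ery 4 cells of library 1 with at least 10% mitochondrial UMIs and all 14 of library 2. The leading genes were mt-Nd3, Xpo7, mt-Nd2, mt-Nd1 and mt-Nd5, with a ratio of 8.18 and 4.20 for mt-Nd3 and 3.89 and 10.9 for Xpo7, and the lowest were Asf1b, Spc25, Ccnb1, Tuba1c and Hat1. The cells of cluster 13 also held 2 of the 3 Ery 4 cells of library 1 with many Hbb-y UMIs. Leaving out cluster 13, an alternative added with the data in view, changed the counts on all UMIs little, with 58 genes higher and 1590 lower than in Ery 3, 918 higher and 15 lower than in Ery 5, and 3033 higher and 127 lower than in Ery 6. Of 709 listed or named genes, 8 had another call against Ery 3, 11 against Ery 5 and 10 against Ery 6 outside the adult globins. Among them, Xpo7 went from a ratio to Ery 3 of 2.84 and 3.41 to 2.36 and 1.92. Cenpe against Ery 5 and Slc25a37 against Ery 6 crossed 2-fold in library 1 with nearly the same ratio. Cenpe went from 0.4931 and 0.4756 to 0.5045 and 0.4769, and Slc25a37 from 0.496 and 0.44 to 0.5024 and 0.4385.

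**Figure D5:**
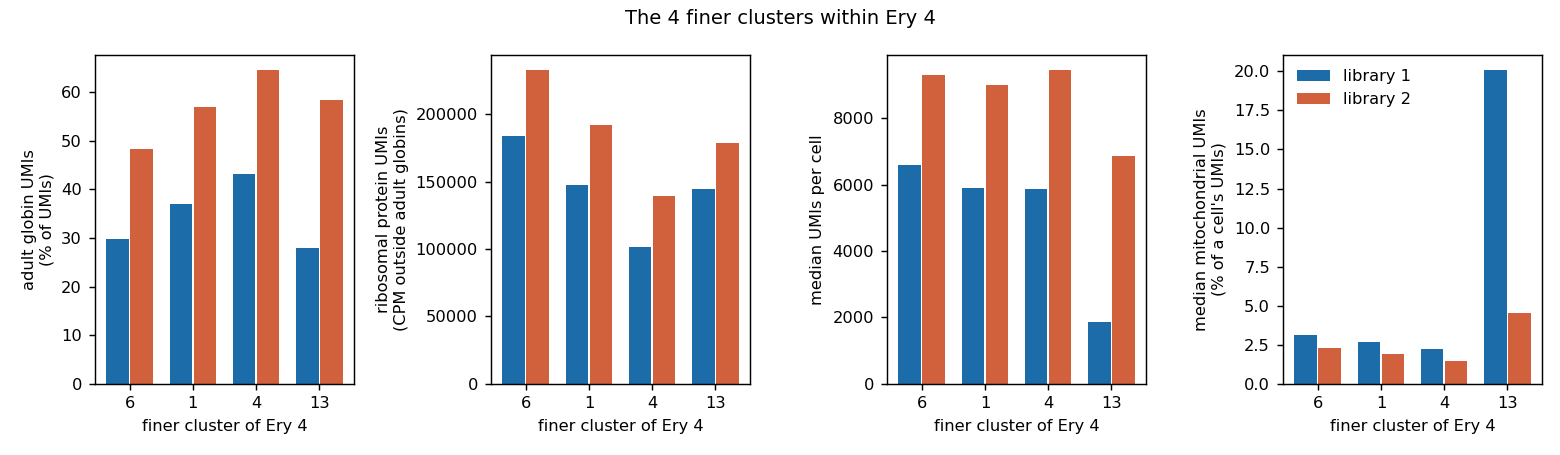
The 4 finer clusters of Ery 4 in each library, with the share of adult globin UMIs, the summed level of ribosomal protein genes outside the adult globins, the median UMIs per cell and the median share of mitochondrial UMIs. Cluster 13 has the highest mitochondrial share, with medians of 20.1% and 4.52%, and the fewest UMIs per cell.

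Markers of other cell types were low in Ery 4. The 11 granulocyte markers summed to 161 and 80.9 CPM of all UMIs, against 2844 and 2073 CPM in free RNA and 71906 and 58922 CPM in the granulocytes themselves, and the most abundant was S100a9 at 44 and 26.2 CPM. The 13 Mo/KC markers summed to 31.1 and 13.5 CPM (free RNA 996 and 392.3 CPM), led by Lyz2 at 25.3 and 11.8 CPM and with Cd163 at 0, and the 11 hepatoblast markers, led by Afp at 17.6 and 6.76 CPM, to 64.0 and 26.9 CPM (708 and 626 CPM). The 10 endothelial markers, led by Egfl7 at 6.79 and 3.73 CPM and with Tek at 0, summed to 9.30 and 5.98 CPM (96.2 and 125.5 CPM), and the 10 megakaryocyte (Mk) markers, led by Rap1b at 80.5 and 51.2 CPM, to 117 and 73.1 CPM (625 and 448 CPM). The 10 HSPC markers summed to 41.6 and 25.1 CPM (158 and 120.4 CPM), with Hlf and Spink2 at 0 and Adgrg1 alone at 37.3 and 22.4 CPM. In each of these lists Ery 4 was below free RNA. The 3 primitive markers summed to 6422 and 3188 CPM in Ery 4, against 15252 and 14009 CPM in free RNA. Of the sum in Ery 4, 4727 and 2769 CPM were Hbb-bh1, whereas EryP held 20.4 and 18.2 Hbb-y UMIs per Hbb-bh1 UMI. The primitive sums thus do not compare Hbb-bh1 itself with free RNA. Between the libraries, 82 of 5415 genes (1.51%) differed at least 2-fold within Ery 4 outside the adult globins. Among them were Hist1h2ap and Rpl35, named above, and Pgk1, at 63.6 and 4.22 CPM, and Eno1, at 283 and 53.5 CPM.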

How the data were processed

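The deposited matrices hold raw UMI counts of each gene, once for all barcodes and once for those called as cells. A further table gives each kept cell its cluster, cell type, cell cycle phase and phase scores. The deposited scores (S and G2M) are differences of normalized expression made by the authors. According to the methods, cells of 1 E12.5 liver were processed as 2 technical replicates, and cells with at least 200 genes were kept. The submitters' processing notes name bcl2fastq 2, Cell Ranger 2.1.1, Seurat 3.2.0 and the mm10 genome, whereas the matrix file of library 1 states version 3.0.0. The column of finer clusters names a resolution of 1.2, and the methods give 0.6. The UMI and gene columns of the table were filled for library 1 alone, so UMIs were counted from the matrices, and the library was read from the suffix of the cell name.

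Counts were summed per subcluster and library and divided by all UMIs, or by those outside the 4 adult globins, to give CPM. A side at 0 was set to 3 counts. Intervals are exact Poisson or Clopper-Pearson intervals (95%). Cells were thinned to 2300 UMIs, and the mean over all draws is given. Shallower cells were left out, which were 133 Ery 4 cells of library 1 and none of library 2. Free RNA was summed over 401631 and 386008 barcodes with 1974195 and 1960160 UMIs. The genes named are the 3 markers, Kit, the genes of 27 lists, for each neighbor the 10 genes with the highest and the 10 with the lowest ratio (smaller change of the libraries, at least 100 CPM), and the 10 genes highest in Ery 4 relative to its neighbors. Some genes named by this rule are not reported here. The members and lists were chosen with earlier results of these data known. Hbb-bh1 and the genes that differ between libraries were looked at in more detail with their values in view. Alternatives were each library alone, another scale, fold and count minimum, stricter cell filters and the omission of the 4% of cells with the most UMIs. Gene positions are from GENCODE vM21 (GRCm38). The intervals and counts were tested on simulated data. Computation was done in Python 3.11.15 (pandas 2.3.3, numpy 2.4.6 and scipy 1.17.1), and plots were drawn with matplotlib 3.10.9.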

Additional observations from a re-analysis of the deposited data

How the results depend on the processing

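With each library alone, the number of genes higher than in Ery 3 was 73 to 158 (66 in both libraries together) and of lower genes 1744 to 2713 (1574), the number higher than in Ery 5 was 1204 to 2006 (951) and lower 12 to 44 (11), and the number higher than in Ery 6 was 3347 to 4103 (3127) and lower 133 to 213 (122), since fewer libraries have to pass. Without scaling, as mean UMIs per cell, 8 genes were higher and 4053 lower than in Ery 3, and 17 were lower than in Ery 5. At 1.5-fold, 184 were higher and 3037 lower than in Ery 3, 2246 higher and 65 lower than in Ery 5, and 250 lower than in Ery 6. At 3-fold, the counts were 10 and 482, 225 and 3, and 1571 and 56. With at least 200 UMIs per library, 33 and 909 genes were higher and lower than in Ery 3, 495 and 2 than in Ery 5, and 1625 were higher than in Ery 6. On the UMIs outside the adult globins they were 335 and 589, 286 and 131, and 1393 and 406, the S phase list moved from 4907 to 9129 CPM (mean of the libraries) and the G2 and mitosis list from 13130 to 24242 CPM. Under a stricter cell filter (1000 genes or more, less than 10% mitochondrial UMIs), 1313 genes were higher and 80 lower than in Ery 6. The share of Ery 4 went from 24.3 to 30.1% of cells. The median Ery 6 cell held 761.5 and 710 genes, so this filter removed most Ery 6 cells and compared Ery 4 with the gene-rich remainder. Without cluster 13, an alternative added with the data in view, the share of Ery 4 was 21.7%. Of the alternative counts, shares and levels, 80 stayed within 1.5 times the count or 1 SD of the libraries and 42 moved. The 18 shares and levels of 1 library alone are not in this number, since either of 2 values always lies within 1 SD of their mean. For levels the SD of 2 libraries can be wide, so staying within it is a weak criterion. Hbb-y in Ery 4 counted as staying, although it went from 918 to 549 CPM (mean of the libraries) without the cells rich in Hbb-y and Hba-x. Ratios between subclusters were taken within each library, so these comparisons were paired by library. The 2 libraries come from 1 liver, so no spread between animals is known, and the depth of library 1 leaves 290 Ery 4 cells below the minimum of library 2.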
